A study of Mus musculus with 12 samples.

Results

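Transcripts of adult haemoglobin and of Alas2, an enzyme of maturing red cells, were measured in 12 RNA-seq libraries of prefrontal cortex. The genes were chosen by name: the 4 adult globin genes Hba-a1, Hba-a2, Hbb-bs and Hbb-bt, and Alas2, in all 5 of the 35272 genes to which reads were assigned. The 12 libraries came from female C57BL/6JN mice, an inbred strain, and formed 4 groups of 3. Young saline and young morphine mice were 4 months old, old saline and old morphine mice 20 months old, and the morphine groups received 3 mg/kg of the opioid morphine by intraperitoneal injection. The labels name no introduced allele and no other agent. They give neither the time from injection to tissue collection nor a step that removes blood or globin RNA. Separate animals per replicate are not stated either, and the p-values measure only the spread between these samples.

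Adult haemoglobin is built from alpha chains, encoded by Hba-a1 and Hba-a2, and beta chains, encoded in this strain by Hbb-bs and Hbb-bt, each holding a haem group that binds oxygen. Red cells make these chains while they mature in the bone marrow, lose their nucleus, and enter the blood as reticulocytes that still carry globin mRNA. Alas2 is the erythroid form of aminolevulinate synthase, the first enzyme of haem synthesis, and Alas1 is the form used by other cells. Brain vessels hold blood unless they are flushed, and low globin expression has also been described in some neurons and glia. In bulk tissue, fewer cells of a type and less RNA per cell cannot be told apart, and blood and brain cells that express globin cannot be separated.

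All 5 genes are protein coding in the GENCODE M21 annotation of GRCm38. Hba-a1 lies at chr11:32283511-32284465 and Hba-a2 at chr11:32296489-32297298, both on the plus strand. Hbb-bt lies at chr7:103812524-103813996 and Hbb-bs at chr7:103826534-103828096, both on the minus strand, and Alas2 lies at chrX:150547375-150570638 on the plus strand. The globin genes come as near-identical copies. The coding sequences of Hba-a1 and Hba-a2 were equal at 428 of 429 bases (99.8%), and those of Hbb-bs and Hbb-bt at 443 of 444. The stretches around the 1 differing base, which is in capitals, are shown because the division of reads between the copies depends on such differences and on the bases outside the coding sequence. Each is on the coding strand and lies in exon 3 of 3 of its transcript.
Hba-a1: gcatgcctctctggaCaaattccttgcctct
Hba-a2: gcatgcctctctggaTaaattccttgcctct
Hbb-bs: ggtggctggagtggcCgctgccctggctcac
Hbb-bt: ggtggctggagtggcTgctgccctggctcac
These stretches lie at chr11:32284328-32284358, chr11:32297145-32297175, chr7:103826677-103826707 and chr7:103812668-103812698, in that order. The differences are C381T between Hba-a1 and Hba-a2 and C417T between Hbb-bs and Hbb-bt, counted from 1 at the first coding base. Over whole transcripts, 28.7% of the 31-base words of the main Hba-a1 transcript were absent from that of Hba-a2, and 8.97% the other way round. The corresponding shares were 33.1% for Hbb-bs and 40.6% for Hbb-bt. Values of a single copy are therefore estimates, and sums over the copies are the firmer reading.

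The 4 globin genes also share short motifs in front of their RefSeq start sites. Windows of 250 bases upstream of the RefSeq start (GRCm38.p6) were searched on both strands for 4 words: the CCAAT box, the TATA-like word ATATAA, the word CACCC that factors of the Klf family bind, and GATAA, the core that GATA factors recognise. Matches in either orientation, none overlapping another, are in capitals in the 3 windows shown. The windows of Hba-a2 and Hbb-bs stand for the alpha and beta genes, and that of Alas2 is shown because its RNA followed theirs.
Hba-a2 (chr11:32296242-32296491, plus strand): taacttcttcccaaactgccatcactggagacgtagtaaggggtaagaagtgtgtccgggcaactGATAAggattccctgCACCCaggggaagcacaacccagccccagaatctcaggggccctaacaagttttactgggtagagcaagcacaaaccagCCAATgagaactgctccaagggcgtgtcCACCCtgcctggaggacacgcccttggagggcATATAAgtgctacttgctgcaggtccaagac
Hbb-bs (chr7:103827929-103828178, minus strand): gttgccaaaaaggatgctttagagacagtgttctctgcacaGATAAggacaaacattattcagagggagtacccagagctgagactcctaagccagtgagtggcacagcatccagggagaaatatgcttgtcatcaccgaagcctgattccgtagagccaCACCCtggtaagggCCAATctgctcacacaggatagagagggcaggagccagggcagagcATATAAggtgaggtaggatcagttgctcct
Alas2 (chrX:150547167-150547416, plus strand): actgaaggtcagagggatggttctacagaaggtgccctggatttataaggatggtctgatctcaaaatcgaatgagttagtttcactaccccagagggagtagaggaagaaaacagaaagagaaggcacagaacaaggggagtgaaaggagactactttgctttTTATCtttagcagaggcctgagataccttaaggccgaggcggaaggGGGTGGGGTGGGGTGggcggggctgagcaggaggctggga
All 4 globin windows held all 4 motifs, with ATATAA starting 28 to 31 bases upstream. Among all 32851 windows of this length, 33.9% held CCAAT, 9.10% ATATAA, 52.0% CACCC and 22.6% GATAA, and 153 windows (0.466%) held all 4. The Alas2 window held CACCC 3 times and GATAA once, all on the opposite strand, and neither CCAAT nor ATATAA. The main GENCODE M21 transcripts of Hba-a1, Hba-a2, Hbb-bt and Alas2 start upstream of the RefSeq start. Parts of these windows, for Alas2 the part with the CACCC matches, therefore lie inside an annotated first exon. The windows of Hba-a1 and Hba-a2 were identical over 247 bases. A match describes the letters only.

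Globin RNA was detected in every library and differed 5.94-fold between the highest and the lowest. The 4 globin genes together took 346, 501 and 907 CPM (estimated reads scaled to library size, with sizes adjusted by the trimmed mean of M-values) in old saline replicates 1 to 3. They took 362, 384 and 294 CPM in young saline, 566, 282 and 291 CPM in young morphine, and 430, 153 and 323 CPM in old morphine. Old saline replicate 3 was the highest library and old morphine replicate 2 the lowest, and the other 10 libraries lay between 282 and 566 CPM. As a share of all reads, old saline replicate 3 held 0.0918% globin (95% Wilson interval 0.0909 to 0.0928%) and old morphine replicate 2 held 0.0153% (0.0148 to 0.0159%). These intervals cover counting error only. Group means ± SD (n = 3) were 585 ± 290 CPM in old saline, 380 ± 162 in young morphine, 347 ± 46.9 in young saline and 302 ± 140 in old morphine. No neighbours in this order differed by more than their spread, and the ranges of all 4 groups overlapped.

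**Figure D1:**
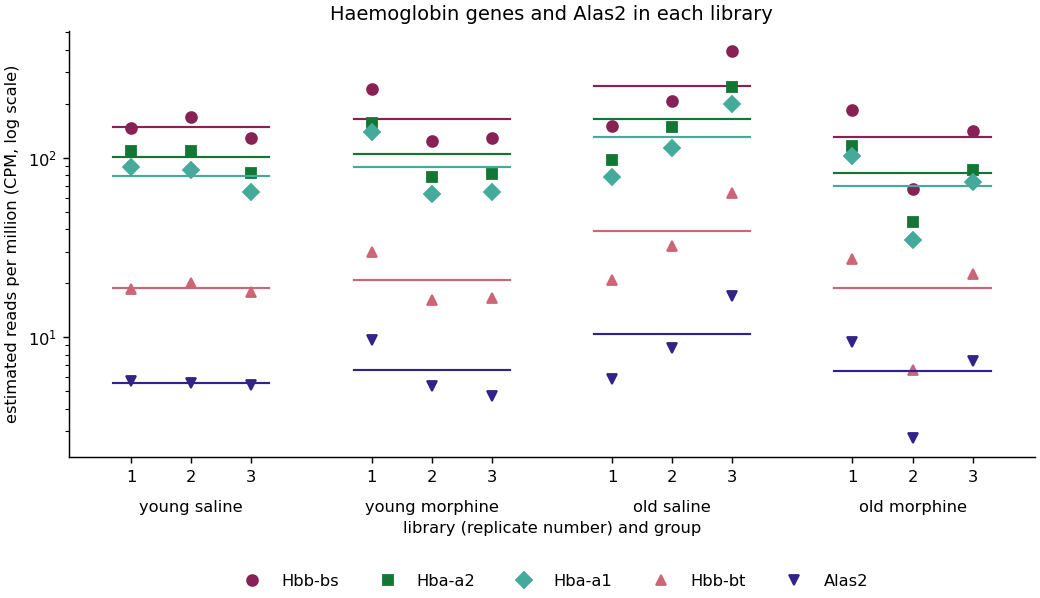
Level of the 5 genes in each of the 12 libraries, in CPM on a log axis, with the library's replicate number and group on the x axis. Points are libraries and lines are group means. The 5 genes peak together in old saline replicate 3 and are lowest together in old morphine replicate 2.

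Sequencing depth ran from 20236452 to 40480571 estimated reads in 11 libraries. Young morphine replicate 2 had 148856113, 4.31 times the median of the others. Library total and Hbb-bs had a correlation near 0 (Pearson r = 0.07 and permutation p = 0.765, Spearman rho = 0.06 and p = 0.869, r = -0.35 without the 2 libraries with extreme Hbb-bs, n = 12). The summed level of 8 markers of cortical neurons lay between 7325 and 8875 CPM in all libraries. These markers are not limited to prefrontal cortex, so their sum does not test the tissue label. The 8 markers of olfactory bulb neurons reached 159 CPM in young morphine replicate 3, 157 in old morphine replicate 1, and 80.1 and 90.6 in old saline replicates 1 and 2, against 20.4 to 30.0 in the other 8 libraries. Neither the highest nor the lowest globin library was among these 4.

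Hbb-bs, the beta chain gene with more reads here, had the highest level of the 5 genes. It measured 146, 169 and 129 CPM in young saline and 242, 124 and 129 CPM in young morphine. In old saline it measured 150, 208 and 396 CPM, and in old morphine 184, 67.2 and 141 CPM. Replicate 3 of old saline was the highest library and replicate 2 of old morphine the lowest, and the groups overlapped in each comparison. Per length, Hbb-bs was the most abundant of the 5, at 953 ± 438 TPM (reads scaled to transcript length and library) over the 12 libraries.

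Hba-a2, an alpha chain gene, was also highest in old saline replicate 3 and lowest in old morphine replicate 2. Its level was 109, 110 and 82.8 CPM in young saline, 157, 78.4 and 81.5 in young morphine, 96.8, 148 and 248 in old saline, and 117, 43.9 and 86.0 in old morphine. Hba-a1, its near-copy, ranged from 35.0 CPM in old morphine replicate 2 to 200.3 CPM in old saline replicate 3. Per length, Hba-a2 stood at 745 ± 328 TPM and Hba-a1 at 376 ± 166 TPM over the 12 libraries. Their mean levels in reads were closer, at 113 and 92.2 CPM. The annotated first exon has 130 bases in the main Hba-a2 transcript and 291 in that of Hba-a1, and TPM depends on such lengths. The alpha groups overlapped in each comparison.

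Hbb-bt, the beta chain gene with fewer reads, varied most. It measured 18.6, 20.1 and 17.97 CPM in young saline and 29.9, 16.2 and 16.6 CPM in young morphine. In old saline it measured 20.7, 32.3 and 63.6 CPM, and in old morphine 27.3, 6.61 and 22.6 CPM, a 9.62-fold range over the 12 libraries. Every old saline library was above every young saline library, by a margin of 20.7 to 20.1 CPM at the closest, and the other comparisons overlapped.

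Alas2, which makes the first intermediate of haem in red cell precursors, was present at a far lower level. It measured 5.74, 5.53 and 5.39 CPM in young saline and 9.66, 5.33 and 4.69 CPM in young morphine. In old saline it measured 5.83, 8.66 and 17.0 CPM, and in old morphine 9.46, 2.76 and 7.36 CPM. The lowest old saline library was 5.83 CPM against 5.74 CPM for the highest young saline library, so these groups did not overlap, on 222 and 225 reads in those libraries, and the groups of the other comparisons did. The lowest value rested on 56 reads. Per length, Alas2 stood at 7.47 ± 3.67 TPM.

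The age comparison asks whether these transcripts differed between old and young mice. Under saline, all 5 genes had a higher mean in old than in young mice and none passed the test. The log2 differences were 0.77 ± 0.47 (SE) for Hbb-bs, 0.70 ± 0.46 for Hba-a2, 0.71 ± 0.50 for Hba-a1, 1.04 ± 0.54 for Hbb-bt and 0.92 ± 0.50 for Alas2. The 95% interval for Hbb-bs ran from a fold of 0.801 to 3.61. With edgeR's quasi-likelihood test and Benjamini-Hochberg adjustment over 16796 genes, adjusted p was 0.452 to 0.576, and 0 of 5 genes were called where 0.464% of all genes were. None of the 5 had an unadjusted p under 0.05, and DESeq2, limma-voom and limma on log2(TPM + 0.1) called 0 of 5 as well. The groups did not overlap for 2 of 5 genes, Hbb-bt and Alas2, beside 18.1% of all genes. The median log2 difference was 0.77 over the 5 genes and 0.01 over all genes. The difference was smaller without old saline replicate 3, at 0.27 for Hbb-bs, 0.48 for Hbb-bt and 0.37 for Alas2.

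The same age comparison under morphine gave log2 differences between -0.35 for Hba-a2 and 0.03 for Alas2. The values were -0.32 ± 0.47 for Hbb-bs, -0.32 ± 0.50 for Hba-a1 and -0.11 ± 0.55 for Hbb-bt. With edgeR's quasi-likelihood test 0 of 5 were called (adjusted p 0.701 to 0.980), where 9.65% of all genes were, and 0 of 5 groups were free of overlap, where 33.1% of all genes were. None had an unadjusted p under 0.05. Averaged over both treatments, the age difference was 0.18 to 0.47, 0 of 5 genes were called (adjusted p 0.422 to 0.770), and the share called among all genes was 12.1%. Both averages overlapped for all 5 genes, against 4.07% of genes free of overlap. Leaving out old saline replicate 3 brought the averaged difference to -0.03 for Hbb-bs.

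The drug comparison asks whether morphine altered these transcripts. In old mice all 5 genes had a lower mean after morphine than after saline. The log2 differences were -0.94 ± 0.48 for Hbb-bs, -0.99 ± 0.47 for Hba-a2, -0.89 ± 0.50 for Hba-a1, -1.02 ± 0.55 for Hbb-bt and -0.66 ± 0.50 for Alas2. The 95% interval for Hbb-bs ran from a fold of 0.245 to 1.11. With edgeR's quasi-likelihood test 0 of 5 were called (adjusted p 0.300 to 0.509, unadjusted 0.0656 to 0.217), beside 0.583% of all genes, and 0 of 5 were free of overlap, beside 20.4%. DESeq2, limma-voom and limma on log2(TPM + 0.1) also called 0 of 5, with a lowest adjusted p of 0.170 for Hba-a2 by DESeq2 (unadjusted 0.0297), the lowest of any member there. The difference for Hbb-bs was -0.45 without old saline replicate 3 and -0.63 without old morphine replicate 2. Without both of these libraries it was -0.14 for Hbb-bs and 0.22 for Alas2, an alternative chosen after the values were seen.

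In young mice the morphine and saline groups had nearly the same means. The log2 differences were 0.15 ± 0.47 for Hbb-bs, 0.06 ± 0.46 for Hba-a2, 0.15 ± 0.50 for Hba-a1, 0.13 ± 0.54 for Hbb-bt and 0.23 ± 0.50 for Alas2. By edgeR 0 of 5 were called (adjusted p 0.950 to 0.988), beside 0% of all genes, and 0 of 5 were free of overlap, beside 16.5%. The interval for Hbb-bs ran from a fold of 0.526 to 2.35. Without young morphine replicate 1, the highest library of its group, the sign turned for all 5 genes, to -0.23 for Hbb-bs.

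The difference between the morphine effects in old and in young mice was -1.09 ± 0.67 for Hbb-bs on the log2 scale and between -0.89 and -1.15 for the 5 genes. By edgeR 0 of 5 were called (adjusted p 0.606 to 0.703, none with an unadjusted p under 0.05), beside 0% of all genes. Averaged over both ages, morphine minus saline was -0.46 to -0.22. There, 0 of 5 were called (edgeR, adjusted p 0.526 to 0.803), beside 1.23% of all genes, and 0 of 5 were free of overlap, beside 1.11%. The comparisons share groups, so their signs are not separate evidence.

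**Figure D2:**
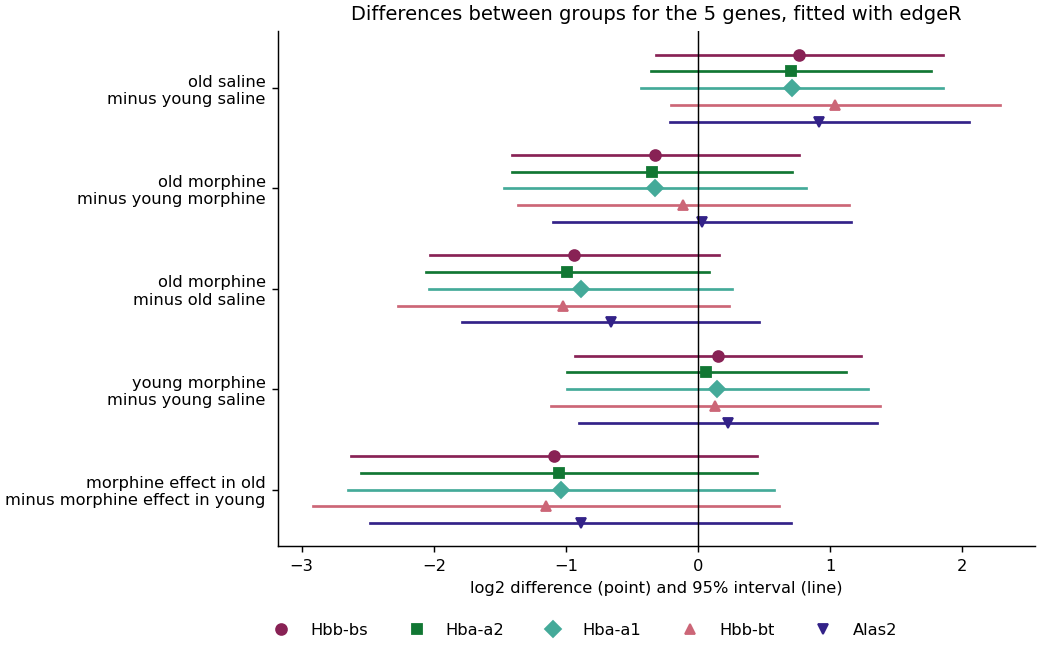
Log2 difference between groups for the 5 genes (points) with its 95% interval (lines), from the edgeR fit of all 12 libraries, 1 block of 5 genes per comparison. Every interval crosses 0. The 5 genes lie on the same side of 0 in each comparison except old morphine minus young morphine, where Alas2 is at 0.03 and the other 4 are below 0.

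The 5 genes varied widely between replicates of a group. The SD of log2 CPM within groups was 0.59 for Hbb-bs, 0.58 for Hba-a2, 0.63 for Hba-a1, 0.73 for Hbb-bt and 0.67 for Alas2, against a median of 0.13 over 16796 genes. Genes of low level vary more by counting alone, so each was also set beside genes of similar mean level. The SD of Hbb-bs was above that of 99.96% of 2270 genes of similar level, whose median was 0.08. For Alas2 the corresponding share was 98.9% of 3496 genes, whose median was 0.16. Hbb-bs rested on 1363 to 18274 reads per library.

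**Figure D3:**
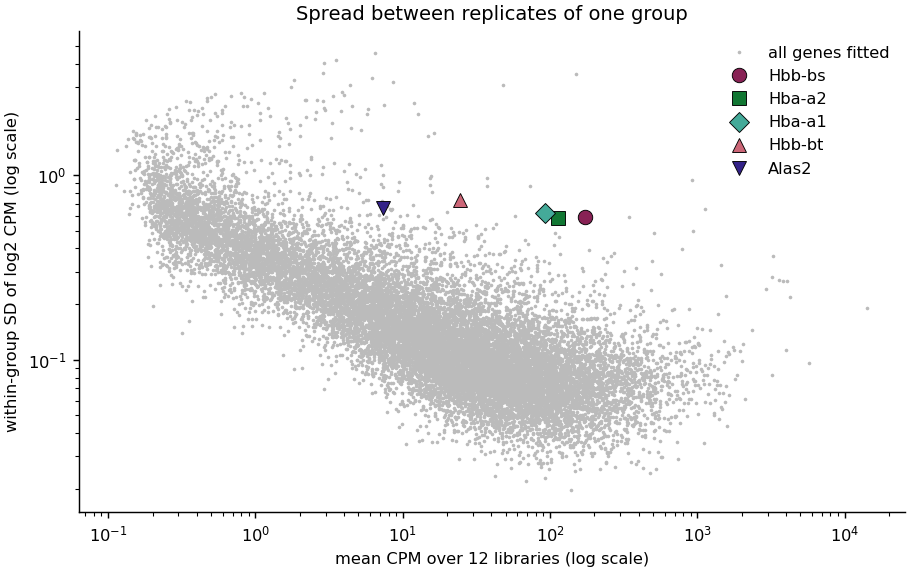
SD of log2 CPM between replicates of a group (y, log axis) against mean CPM over the 12 libraries (x, log axis), 1 grey point per fitted gene, with the 5 genes marked. The marked genes lie above nearly all genes of similar level.

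The 5 genes moved together from library to library. The alpha sum ranged from 78.9 CPM in old morphine replicate 2 to 448 CPM in old saline replicate 3, and the beta sum from 73.8 to 459 CPM in the same libraries. Over the 12 libraries the log2 levels of the alpha and beta sums had Pearson r = 0.99 and Spearman rho = 0.98, each with p = 1e-05, the smallest that the 100000 resamples of the permutation test can give (adjusted p = 3e-05 for r over 3 pairs). After group means were subtracted r was 0.99 (exact permutation p = 0.00231 over all 1296 rearrangements within groups), and without the 2 libraries farthest from the median it was 0.97. Alas2 followed the alpha sum with r = 0.95 (permutation p = 4e-05, adjusted p = 4e-05) and rho = 0.92 (p = 8e-05). It followed the beta sum with r = 0.96 (permutation p = 3e-05, adjusted p = 4e-05) and rho = 0.92 (p = 6e-05). Without the 2 extreme libraries these r were 0.81 (permutation p = 0.00558) and 0.87 (permutation p = 0.00176). Both relations were as strong among replicates of a group, at r = 0.97 and 0.98.

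**Figure D4:**
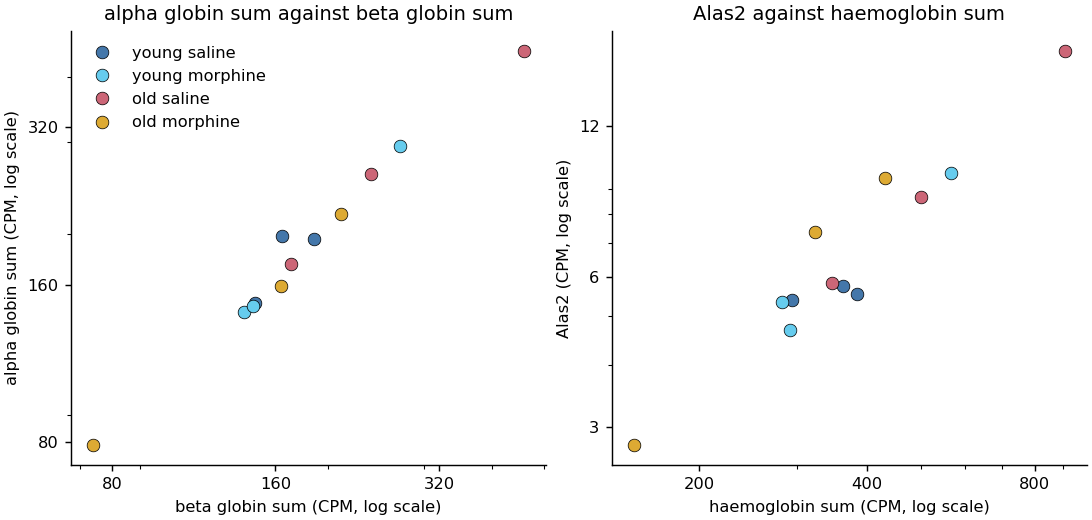
Left: alpha globin sum against beta globin sum, and right: Alas2 against the sum of the 4 globin genes, in CPM on log axes, 1 point per library coloured by group. The points rise along 1 line in both panels, with old saline replicate 3 at the top and old morphine replicate 2 at the bottom.

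Ratios between these genes were far steadier than their levels. The globin sum had a coefficient of variation of 47.6% over the 12 libraries. The alpha to beta ratio of TPM, whose size depends on annotated transcript lengths, lay between 0.988 and 1.18. Hba-a1 took 43.2 to 46.9% of the alpha reads. The following comparisons of ratios were made after values were seen, 12 in all, each by a two-sided exact permutation test of labels within strata with 400 arrangements, and no adjusted p was under 0.05.

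Hbb-bt took 11.3, 10.7 and 12.2% of beta globin reads in young saline and 11.01, 11.6 and 11.4% in young morphine. It took 12.1, 13.4 and 13.8% in old saline and 12.9, 8.92 and 13.8% in old morphine. Old morphine replicate 2, the library with the fewest globin reads, stood apart at 8.92% (95% Wilson interval 7.61 to 10.5%), and the other 5 old libraries were between 12.1 and 13.8%. The old mean exceeded the young mean by 1.13 percentage points (exact permutation p = 0.185, adjusted p = 0.317). Without that library the difference was 1.87 points (exact permutation p = 0.010), and without old morphine replicate 3 it was 0.651 points (exact permutation p = 0.480).

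Alas2 gave 1.59, 1.44 and 1.83 reads per 100 globin reads in young saline and 1.71, 1.89 and 1.61 in young morphine. It gave 1.68, 1.73 and 1.87 in old saline and 2.20, 1.81 and 2.28 in old morphine. The old mean was 0.250 higher than the young mean (exact permutation p = 0.055, adjusted p = 0.204), and the morphine mean was 0.225 higher than the saline mean (exact permutation p = 0.080, adjusted p = 0.204). With each library left out in turn the age difference ran from 0.204 without old morphine replicate 3 (exact permutation p = 0.090) to 0.321 without old morphine replicate 2 (exact permutation p = 0.030). Only that library and young saline replicate 3 (exact permutation p = 0.020) took p under 0.05 when left out. Age groups overlapped for this ratio.

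Within Alas2, reads were divided between the longest form and a shorter protein-coding form, which lacks 45 coding bases at the start of exon 3 (chrX:150552959-150553003, plus strand). They are in capitals in the stretch of the longest form below, shown because only reads here or at the transcript ends tell the forms apart.
Alas2: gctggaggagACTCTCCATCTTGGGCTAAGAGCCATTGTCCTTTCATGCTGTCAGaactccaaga
The shorter form was assigned 27.5, 5.85 and 0% of the reads of both forms in young saline and 32.2, 26.3 and 26.5% in young morphine. It was assigned 2.65, 11.8 and 6.37% in old saline and 4.28, 0 and 2.37% in old morphine. The 3 young morphine libraries and 1 young saline library were at 26.3% or more, and all 6 old libraries were at 11.8% or less. The old mean was 15.2 percentage points lower (exact permutation p = 0.045, adjusted p = 0.204). Leaving out any of 8 of the 12 libraries took the unadjusted p to 0.050 or more. Where no read was assigned, the upper Wilson limits were 2.89% in young saline replicate 3 and 6.42% in old morphine replicate 2. With 56 to 786 Alas2 reads per library and the short stretch that separates the forms, these shares are estimates of the quantification, beyond the counting error given.

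**Figure D5:**
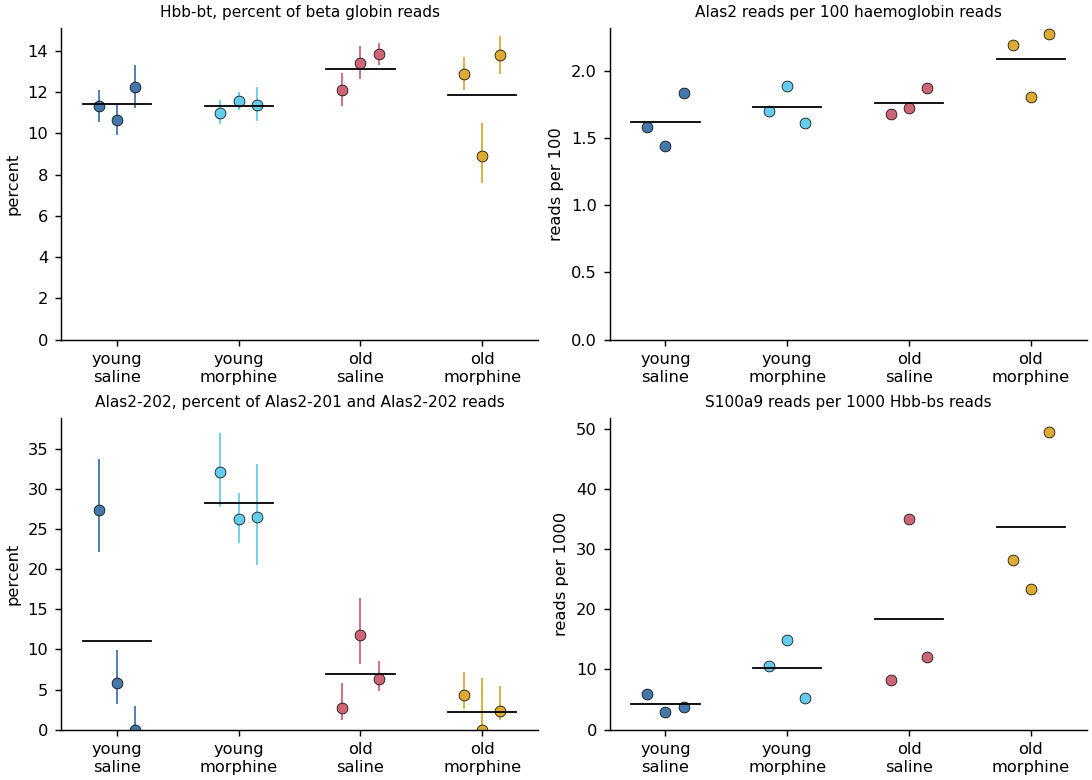
Ratios within each library by group: Hbb-bt share of beta globin reads, Alas2 reads per 100 globin reads, shorter-form share of Alas2 reads, and S100a9 reads per 1000 Hbb-bs reads. Points are libraries, horizontal lines group means, and vertical lines in the panels of percentages 95% Wilson intervals. The shorter-form share is at 26.3% or more in 4 young libraries and at 11.8% or less in all old ones.

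The embryonic globins were at or near 0 reads, and the other globins tested were not called. Hbb-bh0, Hbb-bh1 and Hbb-bh2 of the beta cluster had 0 reads in all 12 libraries, where 3 reads correspond to 0.148 CPM in the shallowest library. Hbb-y, an embryonic beta-like gene, had 8 reads and Hba-x, its alpha-like counterpart, had 5 reads over all libraries. Only 2 of the 10 listed genes had enough reads to be tested: Cygb (cytoglobin, found in fibroblast-like and neural cells) at 38.8 CPM and Ngb (neuroglobin, a neuronal globin) at 1.77 CPM on average. Neither passed the test in any comparison by edgeR (lowest adjusted p 0.116, for Cygb in old morphine against old saline). In 4 of the 7 comparisons 1 of the 2 had an unadjusted p under 0.05, beside 16.9 to 28.1% of all genes there. Hbq1a, a theta-like globin gene, and Mb, myoglobin, averaged 0.158 and 0.124 CPM and were not tested.

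Genes of the red cell membrane and erythroid transcription factors were tested in part: 12 of 23 annotated members entered the fit, and the other 11 were too low. The 4 members highest per length were Sptb (227 CPM), Bpgm (34.5 CPM), Ank1 (57.8 CPM) and Cd59a (4.57 CPM), genes whose expression is not limited to red cells. Gata1 and Klf1, transcription factors of red cell precursors, had 9 and 73 reads over all libraries, and 85896 reads fell on Hbb-bs. Slc4a1, the anion exchanger of the red cell membrane, measured 1.02 ± 0.575 CPM in young saline, 1.32 ± 0.482 in young morphine, 2.20 ± 1.14 in old saline and 3.47 ± 3.15 in old morphine. Its highest value, 6.94 CPM, was in old morphine replicate 1, where the globin sum was 430 CPM. Under saline 11 of the 12 tested members had a higher mean in old mice with a median log2 difference of 0.26 (0.01 over all genes). By edgeR 0 of the 12 were called, beside 0.464% of all genes, and 1 had an unadjusted p under 0.05, beside 13.5% of all genes. Ank1, an ankyrin that neurons also express, rose after morphine averaged over ages by 0.31 ± 0.06 on the log2 scale (edgeR, adjusted p = 0.0276). It was the only called member, 1 of 12 tested beside 1.23% of all genes, and the call was lost when any of 9 of the 12 libraries was left out.

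Haem synthesis genes other than Alas2 differed in how their levels went with Hbb-bs. Over the 12 libraries r with Hbb-bs was 0.70 for Slc25a37, a mitochondrial iron importer, 0.63 for Fech, ferrochelatase, and -0.66 for Cpox, coproporphyrinogen oxidase. These are descriptions without a p, and Slc25a37 and Cpox were named after their values were seen. The 4 members of the list highest per length were Alas1, Tmem14c (17.2 CPM), Urod (18.1 CPM) and Fech (48.1 CPM), which are not limited to red cell precursors. Alas1 stood at 42.7 to 48.3 CPM in the 12 libraries, a narrow band beside the 6.15-fold range of Alas2. The mean log2 level of the 12 genes of the pathway other than Alas2 had r = 0.29 with Hbb-bs (permutation p = 0.359, adjusted p = 0.448 over 20 relations) and rho = 0.07 (permutation p = 0.835), and r = -0.06 without old saline replicate 3 and old morphine replicate 2. Of the 13 genes, 1 fell with age averaged over treatments, beside 12.1% of all genes called in either direction: Slc25a38, a mitochondrial glycine carrier, by 0.27 ± 0.07 on the log2 scale (edgeR, adjusted p = 0.0194). It fell from a young mean of 14.2 CPM to an old mean of 11.8 CPM, and the list kept at least 1 called gene in 24 of 26 alternatives. No gene of the list was called in the other comparisons except Slc25a38 for age under morphine, by -0.37 ± 0.10 (edgeR, adjusted p = 0.0267, beside 9.65% of all genes called), a call lost when any of 5 libraries was left out.

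In the list of haem and iron handling, 3 of 16 tested genes rose with age averaged over treatments and 0 fell, beside 12.1% of all genes called (955 higher and 1077 lower). They were Trf, transferrin (0.44 ± 0.08 on the log2 scale, adjusted p = 0.00558), Hp, haptoglobin, which binds free haemoglobin (2.04 ± 0.56, adjusted p = 0.0309), and Hmox1, haem oxygenase (0.43 ± 0.13, adjusted p = 0.0499), all by edgeR. Hp was near the detection limit, at 0.460 CPM in old and 0.132 CPM in young libraries, and Hmox1 stood at 4.30 and 3.22 CPM. Leaving out 1 library left 1 to 3 rising genes of the list called. The 4 members highest per length, Fth1 and Ftl1 (ferritin chains), Lrp1 and Tfrc (the transferrin receptor), averaged 589, 154, 914 and 97.7 CPM and were not called. Trf was also the 1 called gene of the list for age under saline (0.64 ± 0.11, edgeR, adjusted p = 0.0299, beside 0.464% of all genes called), a call lost when any of 6 libraries was left out. Trf is also a gene of oligodendrocytes.

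White blood cells are carried by the same blood, and their markers were read beside the globins. The 12 neutrophil genes summed to 13.7 to 18.7 CPM in young saline, 17.5 to 23.2 in young morphine, 22.4 to 50.2 in old saline and 21.7 to 42.3 in old morphine. Under saline all 11 tested members had a higher mean in old mice, with a median log2 difference of 2.87 against 0.77 for the 5 red cell genes and 0.01 for all genes. None of the 11 was called by edgeR, and 10 had an unadjusted p under 0.05, beside 13.5% of all genes. DESeq2 called 7 of the 11, beside 389 of the 16460 genes it gave an adjusted p. Averaged over treatments, 6 of 11 rose with age by edgeR, beside 12.1% of all genes called in either direction: S100a9 and S100a8, calcium-binding proteins of neutrophil granulocytes, and Ltf, Lcn2, Camp and Retnlg, products of their granules or secretions. S100a9 rose by 2.14 ± 0.54 on the log2 scale (edgeR, adjusted p = 0.0349), from 1.15 to 4.51 CPM. Leaving out 1 library left between 1 and 9 of the 11 called, with 3 or fewer for 10 of the 12 libraries and 8 and 9 without old saline replicate 1 and without old morphine replicate 2.

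The ratio of neutrophil to globin reads varied widely between libraries. S100a9 gave 5.95, 2.91 and 3.70 reads per 1000 Hbb-bs reads in young saline and 10.5, 14.8 and 5.20 in young morphine. It gave 8.22, 35.0 and 12.1 in old saline and 28.2, 23.5 and 49.5 in old morphine, a 17.0-fold range over the libraries. The old mean was 26.1 and the young mean 7.18 (exact permutation p = 0.005, the smallest the design allows, adjusted p = 0.060), with overlap between the ages. The mean log2 level of the neutrophil list and Hbb-bs had r = 0.53 (permutation p = 0.0707, adjusted p = 0.141) and rho = 0.50 (permutation p = 0.103), and r = 0.48 without the 2 extreme libraries. After group means were subtracted r was 0.72 (exact permutation p = 0.0872, not adjusted). Ngp and Cxcr2, also among the 4 highest of the list per length, averaged 2.37 and 9.17 CPM. How much of the neutrophil signal was blood and how much tissue was not tested.

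Igkc and Ighm, immunoglobulin chains of B cells and plasma cells, were the called lymphocyte genes for age averaged over treatments, 2 of 5 tested, beside 12.1% of all genes. Ms4a1 and Cd79a, B cell surface proteins, averaged 1.56 and 0.366 CPM and were not called. Igkc measured 0.587, 0.490 and 0.278 CPM in young saline and 1.13, 0.454 and 0.412 CPM in young morphine. It measured 3.36, 6.35 and 6.19 CPM in old saline and 7.94, 3.98 and 3.58 CPM in old morphine, every old library above every young one. Averaged over treatments it rose with age by 3.26 ± 0.33 on the log2 scale (edgeR, adjusted p = 0.000478), and Ighm rose by 0.84 ± 0.16 (adjusted p = 0.00781). Both calls held when each library was left out in turn. Old saline replicate 3, highest in globin, held 6.19 CPM of Igkc, and old morphine replicate 2, lowest in globin, held 3.98 CPM. Igkc had r = 0.30 with the globin sum over the 12 libraries and r = 0.75 after group means were subtracted, descriptions without a p. The mean log2 level of the lymphocyte list and Hbb-bs had r = 0.33 (permutation p = 0.291, adjusted p = 0.416). After group means were subtracted this r was 0.58 (exact permutation p = 0.202).

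The mean log2 level of the platelet genes had r = 0.79 with Hbb-bs (permutation p = 0.00485, adjusted p = 0.0323) and rho = 0.75 (permutation p = 0.00716), falling to r = 0.42 without the 2 extreme libraries, on which the relation rests. The blood monocyte genes had r = 0.64 with Hbb-bs (permutation p = 0.0196, adjusted p = 0.0867) and rho = 0.73 (permutation p = 0.00895, adjusted p = 0.0448), and r = 0.66 without those libraries. The 4 tested platelet genes were called in no comparison by edgeR, and 1 had an unadjusted p under 0.05, in old against young morphine, beside 26.4% of all genes. Pf4, Gp1bb, Itga2b and Ppbp averaged 0.950, 0.989, 1.27 and 0.557 CPM. The list of haem and iron handling had r = 0.78 with Hbb-bs (permutation p = 0.00112, adjusted p = 0.0125), rho = 0.65 (permutation p = 0.0256) and r = 0.74 without those libraries. After group means were subtracted r was 0.85 for platelets, 0.82 for blood monocytes and 0.93 for haem and iron handling (exact permutation p = 0.0162, 0.0116 and 0.00926, not adjusted). The hypoxia response list had r = 0.65 (permutation p = 0.0221, adjusted p = 0.0867) and rho = 0.79 (permutation p = 0.00336, adjusted p = 0.0448). Its r was 0.49 without those libraries. Endothelial markers had r = 0.60 (permutation p = 0.0352, adjusted p = 0.1004) and rho = 0.69 (permutation p = 0.0177), and r = 0.57 without those libraries. Mural cell markers had r = 0.55 (permutation p = 0.0638) and rho = 0.77 (permutation p = 0.00473, adjusted p = 0.0448), and r = 0.66 without those libraries. Meningeal markers had r = 0.54 (permutation p = 0.0701) and rho = 0.69 (permutation p = 0.0156, adjusted p = 0.0507), and r = 0.57 without those libraries. After group means were subtracted these r were 0.54, 0.41 and 0.35 (exact permutation p = 0.2045, 0.345 and 0.422). Of 6 tested blood monocyte genes 1 rose with age averaged over treatments, a share near the 12.1% of all genes called, Chil3 by 2.33 ± 0.53 on the log2 scale (edgeR, adjusted p = 0.0154). Chil3, a chitinase-like protein of myeloid cells, measured 0.0255 to 0.954 CPM in young and 0.341 to 1.91 CPM in old libraries, which overlapped, and this call was not examined with single libraries left out. In old morphine against old saline, where all 5 red cell genes had a lower mean, 8 of 8 markers of meningeal fibroblasts also had a lower mean (median log2 difference -0.83, 0 called by edgeR, 2 with an unadjusted p under 0.05). Their summed level was 464 to 1127 CPM in old morphine and 1108 to 1661 CPM in old saline. In the same comparison 8 of 8 astrocyte markers (median -0.20), 9 of 10 mural cell markers (median -0.46) and 7 of 8 microglial markers (median -0.22) had a lower mean, with 3, 3 and 4 at an unadjusted p under 0.05, beside 18.7% of all genes, and 0 called by edgeR. A higher mean was seen for only 3 of 12 endothelial (median -0.24) and 1 of 6 tested choroid plexus markers (median -0.53). Of each list 2 had an unadjusted p under 0.05 and 0 were called by edgeR. In young morphine against young saline the 8 meningeal markers also had a lower mean (median -0.40, 0 called by edgeR, 1 with an unadjusted p under 0.05). The 5 red cell genes had log2 differences of 0.06 to 0.23 in that comparison, 0 of them with an unadjusted p under 0.05. Those 5 differences were below 0 without young morphine replicate 1. Also lower in young morphine than in young saline were 8 of 8 astrocyte (median -0.25), 8 of 8 microglial (-0.14) and 9 of 10 mural cell markers (-0.16). Of these, 5, 1 and 0 had an unadjusted p under 0.05, beside 9.11% of all genes, and 0 were called by edgeR. In the same young comparison 2 of 12 endothelial (median -0.14) and 3 of 6 choroid plexus markers (median -0.06) had a higher mean, with 0 called by edgeR. Averaged over ages, edgeR called 2 astrocyte genes and 1 endothelial gene lower after morphine, and 0 of either list higher, beside 1.23% of all genes called. Oligodendrocyte markers had a higher mean after morphine for 8 of 8 in young mice (median 0.57) and 6 of 8 in old mice (median 0.30). Of these, 6 and 0 had an unadjusted p under 0.05, and 0 were called by edgeR. The choroid plexus and oligodendrocyte lists had r = 0.41 and -0.22 with Hbb-bs (permutation p = 0.193 and 0.504). Of the 10 tested hypoxia response genes edgeR called 1 lower in old morphine against old saline, beside 0.583% of all genes. Averaged over ages it called 2 of these 10 lower after morphine, beside 1.23% of all genes. For age averaged over treatments 1 of these 10 and 2 of 6 choroid plexus genes were called higher, beside 12.1% of all genes. These calls were not examined with single libraries left out. The part of meninges or vessels in the globin differences was not tested.

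The genes whose levels were most like the globin sum over the 12 libraries were named by correlation among 13598 genes with a mean of at least 1 CPM. These likenesses are descriptions without a p, since all values come from the same libraries. The nearest was Lrrc8d, a subunit of volume-regulated anion channels, with r = 0.93, followed by Lgals9, a galectin, Ube2l6, Igfbp7, Cstb, Syngr2, Helb, Cyp4f15, Ly6c1 and Ly6a with r from 0.89 down to 0.86. A high r does not mean a like range. Lrrc8d ran only from 45.4 CPM in old morphine replicate 2 to 58.2 CPM in old saline replicate 3. After group means were subtracted, Tent5c, an RNA polymerase that lengthens poly(A) tails and is high in red cell precursors, came first with r = 0.93, followed by Igfbp7 with r = 0.93. Tent5c measured 5.79 to 7.84 CPM in young saline, 16.3 CPM in old saline replicate 3 and 5.32 CPM in old morphine replicate 2.

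Counts of called genes over the whole table differed when the globin level was a term in the fit. When its log2 value was added as a covariate, edgeR called 1 gene in old morphine against old saline in place of 98, and 42 in place of 206 for morphine averaged over ages. Age averaged over treatments kept 1967 of 2032 in number, 1828 of them the same genes. Leaving out old saline replicate 3 and old morphine replicate 2, with no covariate, also left 1 gene in old morphine against old saline and 26 for morphine averaged over ages. Single libraries also moved the count in old morphine against old saline: it was 10 without old saline replicate 2 or replicate 3, 14 without old morphine replicate 2 or replicate 3, 711 without old saline replicate 1 and 276 without old morphine replicate 1. The covariate and the group differ together in the old mice, and this test cannot tell them apart.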

How the data were processed

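RNA was extracted with Trizol, depleted of ribosomal RNA and read on a NovaSeq instrument, per the labels' protocols. Salmon 1.4.0, DESeq2 1.30.1 and GRCm38 are named, per the submitters' processing notes. The deposited values are estimated counts and TPM per transcript, per the file headers. Strand and bias settings and the annotation release are not given in the sources used here.

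Of 113911 transcripts, 113694 were matched by identifier without version to 35272 genes of GENCODE M21, and the other 217, with at most 0.0994% of the reads of any library, were not used. Read estimates (estimated counts) were added up within genes, then rounded to integers for testing. Members and gene lists were chosen with earlier results of these data known. Named are the members and the 10 genes most like the globin sum. Called genes and the 4 highest by mean TPM are named for globin, red cell membrane, haem synthesis, iron handling, neutrophil, lymphocyte and platelet lists. The other lists are given as wholes, with only Chil3, the called blood monocyte gene, named. Slc4a1, Gata1, Klf1, Hbb-y, Hba-x, the silent beta-like genes, the levels of Tent5c and Lrrc8d, and the ratio and transcript comparisons were chosen after values were seen.

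The main test was edgeR 4.0.16 (R 4.3.3) quasi-likelihood over all 12 libraries with TMM scaling, 16796 genes kept by filterByExpr, 1 coefficient per group, 8 residual degrees of freedom and Benjamini-Hochberg adjustment at 0.05. Correlations used log2 CPM with a prior count of 2. Permutation tests used scipy 1.17.1 and numpy 2.4.6. Replicates were no copies of each other (chi-square per degree of freedom 5.18 to 24.8). Alternatives were other scalings, filters and tools (DESeq2 1.42.0, limma 3.58.1), length-scaled counts, protein-coding genes alone, the compared libraries alone, each library left out, summed copies, thinning of the deepest library, a replicate block and the globin level as a covariate. Simulated counts with known changes served as a check.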

Additional observations from a re-analysis of the deposited data

How the results depend on the processing

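No member was called in any comparison under any alternative that tested them (the fit with the globin level as a covariate left them out), and the relations among members kept their sign and side of the threshold. Several log2 differences changed sign. With each library left out in turn, young morphine minus young saline ran from -0.23 to 0.33 for Hbb-bs, -0.33 to 0.24 for Hba-a2, -0.32 to 0.35 for Hba-a1, -0.21 to 0.30 for Hbb-bt and -0.14 to 0.41 for Alas2, below 0 without young morphine replicate 1. Old morphine minus young morphine ran from -0.65 to 0.058 for Hbb-bs, -0.68 to 0.051 for Hba-a2, -0.69 to 0.15 for Hba-a1, -0.46 to 0.26 for Hbb-bt and -0.32 to 0.40 for Alas2. Age averaged over treatments ran from -0.028 to 0.41 for Hbb-bs, -0.039 to 0.38 for Hba-a2 and -0.037 to 0.43 for Hba-a1, below 0 without old saline replicate 3, and morphine averaged over ages from -0.40 to 0.054 for Alas2. Limma-voom gave -0.021 for Hba-a2 in young morphine minus young saline. For Alas2 in old morphine minus young morphine, DESeq2 gave -0.0073, log2(TPM + 0.1) -0.30, length-scaled counts -0.076 and the replicate block -0.051, and for Hbb-bt length-scaled counts gave 0.011. Without the highest and the lowest globin library together, chosen after the values were seen, Hbb-bt there was 0.26, Alas2 in old morphine minus old saline 0.22, and morphine averaged over ages 0.22 for Alas2, 0.0077 for Hbb-bs, 0.0095 for Hba-a1 and 0.024 for Hbb-bt. The differences in ratios that changed sign with 1 library left out ran from -0.0125 to 0.702 points for Hba-a1 by age, -1.16 to 0.0556 points for Hbb-bt by morphine, and, for alpha to beta, -0.0151 to 0.0268 by age and -0.0293 to 0.0128 by morphine. The cause was not tested.

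Samples sharing a replicate number did not deviate together (18 pairs, r from -0.21 to 0.07, 0 over 0.1), and the numbers were not taken to pair them. With the replicate block 0 of 5 members were called, and the genes called in old morphine minus old saline were 36 in place of 98. Over all alternatives the genes called there ran from 1 to 776, and for age averaged over treatments from 249 to 2604. The 56 Alas2 reads of old morphine replicate 2 and the 3 libraries of each group limit the precision.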
